A study of Mus musculus with 4 samples.

Results

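The genes described here encode paraspeckle and double-stranded RNA-binding proteins, and their expression was followed in livers of mice with and without the RNA-editing enzyme ADAR2. They were taken by symbol from a list of 9 genes, namely Neat1, Nono, Sfpq, Pspc1, Matr3, Ilf2, Dhx9, Zfr and Stau1. Of these, 8 were measured among 25655 genes in the deposited table, and Neat1, the long noncoding RNA around which paraspeckles form, was not analysed here. Liver RNA came from 2 HFD-WT libraries (ADAR2+/+/GluR-BR/R) and 2 HFD-KO libraries (ADAR2−/−/GluR-BR/R), all from mice given a high-fat diet (HFD) for 12 weeks starting at 5 weeks of age. The study states that its work after the glucose and insulin tolerance tests focused on male mice. Both genotypes carried the GluR-BR/R allele, which encodes the edited form of the glutamate receptor subunit and permits survival without ADAR2, so neither group is wild type at that locus. The animals were bred by intercrossing heterozygotes on a B6129S background, and the sequenced molecule was labelled polyA RNA. The study names more mice per group for these data than there are libraries, and how the animals were divided among the libraries is not given in the sources used here, so the p values measure the spread between these libraries, which may be technical.

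Adenosine deaminases such as ADAR2 act on double-stranded RNA, and the proteins considered here meet the same kind of RNA. NONO, SFPQ and PSPC1 share the DBHS architecture, pair with each other and hold the paraspeckle together, and NONO, SFPQ and the matrix protein matrin 3 are known to retain heavily edited, inosine-containing RNA in the nucleus. ILF2 pairs with double-stranded RNA-binding partners through its DZF domain, DHX9 is a helicase that unwinds RNA duplexes, ZFR is a zinc finger protein with a DZF domain, and Staufen 1 binds duplexes in mature mRNA and acts in its transport and decay. The comparison addressed whether the transcripts of these proteins differ in level between HFD-KO and HFD-WT livers.

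The total count per library ranged from 24480798 to 28691330, at which 3 counts equal between 0.104 and 0.126 CPM (counts normalised to library size). CPM values were scaled by the TMM method, and genotypes were compared by edgeR's quasi-likelihood test over 12967 genes with Benjamini-Hochberg adjustment. Adarb1, which encodes ADAR2, had 15.7 and 19.8 CPM in HFD-WT and 6.23 and 9.55 CPM in HFD-KO livers, so reads on the gene were present in the HFD-KO libraries. Its log2 fold change of -1.17 (standard error, SE, 0.20, unadjusted p = 0.000589) had an edgeR-adjusted p = 0.159, while that by DESeq2 was 0.000395 and those with a library left out ran from 3.11e-07 (without replicate 2 of HFD-KO) to 0.971 (without replicate 2 of HFD-WT). Over all genes tested, 551 were higher and 613 lower at an unadjusted p under 0.05 by edgeR, and 346 and 894 when scaled by the library size alone. Hepatocyte markers were abundant in every library, and albumin (Alb) alone had between 52676 and 66104 CPM. Lymphoid markers summed to 123 CPM in replicate 1 of HFD-KO and to between 15.3 and 17.8 CPM in the other libraries.

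All 8 genes were expressed in every liver library, and their order was nearly fixed. Levels of different genes are compared here in TPM, the authors' abundance scale per exon length. The order and the ratios between genes therefore depend on the length used, such as 7500 bases for Matr3 and 5261 for Zfr. In CPM, which takes no account of length, Matr3 (40.7 to 47.5) stood above Zfr (34.2 to 37.8). Nono was highest, with 68.3 and 69.2 TPM in HFD-WT and 67.4 and 73.0 TPM in HFD-KO livers. Stau1 followed with 42.0 and 43.9 TPM in HFD-WT and 41.2 and 38.6 TPM in HFD-KO livers. Sfpq ranged over the libraries from 22.4 to 28.0 TPM, Dhx9 from 20.4 to 23.7 TPM, Zfr from 14.3 to 15.2 TPM, Matr3 from 11.8 to 13.6 TPM and Ilf2 from 10.7 to 12.2 TPM. Pspc1 was lowest, with 1.78 to 1.99 TPM. Neighbouring genes in this order had separate ranges over the 4 libraries, except that Sfpq overlapped Dhx9 and Matr3 overlapped Ilf2. Within a library the order was the same in 3 of the 4 libraries, and in replicate 1 of HFD-KO Ilf2 stood above Matr3. Among the 17301 genes with a count, mean TPM placed Nono at percentile 91.7, Stau1 at 87.7, Ilf2 at 69.4 and Pspc1 at 42.3.

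**Figure D1:**
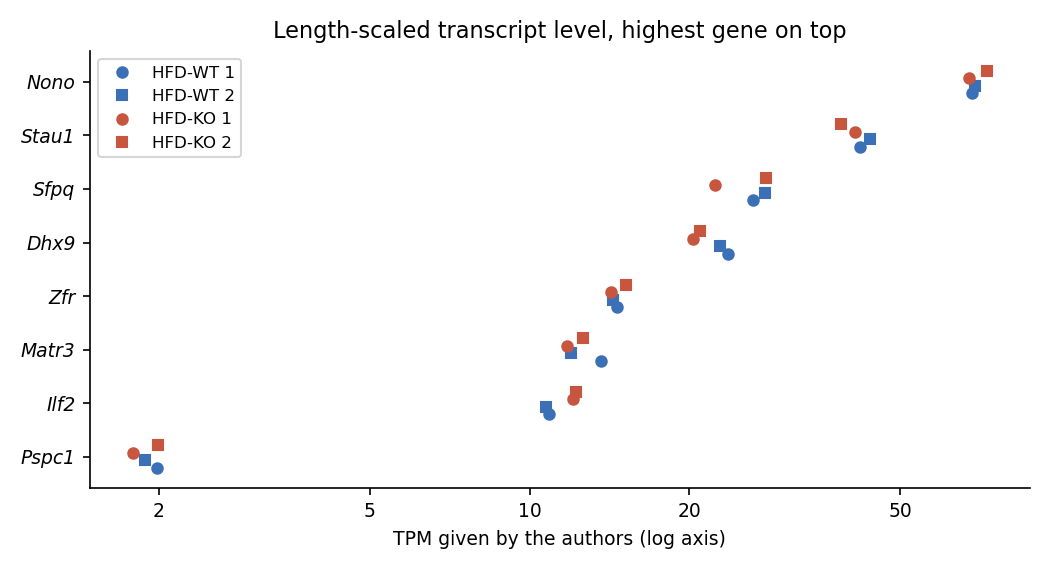
TPM as given by the authors (horizontal log axis) for each of the 8 genes (rows), with 1 point per library, blue for HFD-WT and red for HFD-KO, circles for replicate 1 and squares for replicate 2. Nono sits at 67.4 to 73.0 TPM and Pspc1 at 1.78 to 1.99 TPM, and the points of Sfpq and Dhx9, as well as those of Matr3 and Ilf2, share part of their range.

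The promoters of 7 of the 8 genes were examined for what these genes share besides their listing. The RefSeq promoter windows spanned 300 bases (GRCm38.p6, 250 before and 50 after the start). They were taken by symbol for these 7 genes in 8 windows, as Stau1 has a pair of starts. Matr3 was left out, so the values for the 8 windows do not cover it. The CCAAT pentamer, read as CCAAT or ATTGG so that both strands are covered and overlapping matches are counted, occurred in 4 of the 8 windows (50%) and in 37.4% of all 32851 windows. At least 2 matches were found in 3 windows (37.5%, those of Sfpq, Ilf2 and Nono) against 11.7% of all windows. Dhx9, Zfr and Stau1 had 0 matches, which says only that these letters are not in these windows. The median GC content was 56.3% in the 8 windows and 52.7% in all windows. The letters CG in sequence occurred a median of 22.5 times in the 8 windows and 7.0 times in all windows. The sets thus differ in base make-up, and the shares with the pentamer were not adjusted for it. The stretches with most matches are shown, cut at the more upstream of the RefSeq and GENCODE starts, with the pentamers in capitals. They lie on the plus strand of GRCm38.p6 at chr3:90475951-90476125 for Ilf2 and at chr4:127021051-127021300 for Sfpq, where GENCODE M21 lists 0 genes.
Ilf2: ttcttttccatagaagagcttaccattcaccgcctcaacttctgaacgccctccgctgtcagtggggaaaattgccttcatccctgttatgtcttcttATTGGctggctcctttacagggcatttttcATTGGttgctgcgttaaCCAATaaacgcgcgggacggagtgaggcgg
Sfpq: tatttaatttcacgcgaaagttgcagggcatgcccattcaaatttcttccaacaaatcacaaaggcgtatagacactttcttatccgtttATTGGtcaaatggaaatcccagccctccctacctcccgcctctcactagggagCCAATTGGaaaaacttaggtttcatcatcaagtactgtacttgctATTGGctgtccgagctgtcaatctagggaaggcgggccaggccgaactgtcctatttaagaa
The Sfpq stretch holds 4 matches, of which a pair overlaps in CCAATTGG, and the Ilf2 stretch holds 3 in its part closest to the gene. A match is a description of the letters and was not linked to any difference between the genotypes.

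The DBHS genes, which encode the dimers at the core of the paraspeckle, did not pass the test in either direction. Nono (ENSMUSG00000031311, chromosome X from 100472924 to 100492197 on GRCm39) had 90.0 and 88.9 CPM in HFD-WT and 92.8 and 97.8 CPM in HFD-KO livers. Both HFD-KO libraries lay above both HFD-WT libraries, but the log2 fold change was 0.09 (SE 0.079, edgeR adjusted p = 0.774), with a 95% interval from -0.09 to 0.27. Sfpq (ENSMUSG00000028820, chromosome 4 from 126915117 to 126930806) had 46.0 and 47.2 CPM in HFD-WT and 40.8 and 49.6 CPM in HFD-KO livers. The HFD-KO libraries stood on either side of the HFD-WT libraries and were 19.4% apart, against 2.64% in HFD-WT, which made Sfpq the gene of the 8 whose HFD-KO replicates differed most. Its log2 fold change was -0.05 (SE 0.11, edgeR adjusted p = 0.930) and took the opposite sign, 0.09, without replicate 1 of HFD-KO. Pspc1 (ENSMUSG00000021938, chromosome 14 from 56958167 to 57015773) had 5.42 and 5.02 CPM in HFD-WT and 5.09 and 5.53 CPM in HFD-KO livers, from 132 to 157 reads per library. The groups overlapped, the log2 fold change was 0.02 (SE 0.16, edgeR adjusted p = 0.978), and the counting error alone was 8.70% of the lowest count.

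Among the DBHS transcripts, Nono made up between 70.0% and 73.6% of the summed TPM of Nono, Sfpq and Pspc1, and Pspc1 made up between 1.90% and 2.05%. The ratio of Nono to Sfpq in TPM was 2.58 and 2.49 in HFD-WT and 3.0 and 2.61 in HFD-KO livers, so that the library with the highest ratio was the one with the lowest Sfpq. The ratio of Nono to Pspc1 ranged from 34.4 to 37.8 and overlapped between genotypes. These ratios were not tested.

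Matr3 encodes matrin 3, a nuclear matrix protein that binds RNA and is found with NONO and SFPQ. It lies on chromosome 18 from 35695191 to 35726888 (ENSMUSG00000037236) and had 47.5 and 40.7 CPM in HFD-WT and 42.9 and 44.8 CPM in HFD-KO livers. Both HFD-KO values fell between the HFD-WT values, which were 15.4% apart, the largest gap between HFD-WT replicates among the 8 genes. The log2 fold change was -0.01 (SE 0.099, edgeR adjusted p = 0.987), with a 95% interval from -0.24 to 0.22. Snhg4, a host gene of small nucleolar RNA, overlaps Matr3 on the same strand and had at most 14 counts in a library.

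Ilf2, which encodes a DZF-domain protein also known as NF45, came closest to the threshold. It lies on chromosome 3 from 90383433 to 90395686 (ENSMUSG00000001016) and had 11.1 and 10.7 CPM in HFD-WT and 12.9 and 12.7 CPM in HFD-KO livers, from 293 to 339 reads per library. The HFD-KO libraries were both above the HFD-WT libraries, and the gap between the groups exceeded that between replicates, 3.98% in HFD-WT and 1.49% in HFD-KO. The fold was 1.18 (95% interval 0.995 to 1.39), a log2 fold change of 0.23 with a SE of 0.10. The unadjusted p was 0.0559 and the edgeR adjusted p = 0.566, so the difference did not pass the test. Over the alternatives the log2 fold change stayed between 0.19 and 0.26, and the lowest adjusted p was 0.508. The last 354 bases of Ilf2 are shared with Snapin on the opposite strand, and whether the counting used strand is not given in the sources used here. Snapin had between 427 and 594 counts per library and a log2 fold change of 0.10 (SE 0.12, edgeR adjusted p = 0.846), with HFD-KO libraries on either side of the HFD-WT libraries.

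Among the remaining genes, Dhx9 leaned to lower and Zfr to higher values in HFD-KO livers, neither beyond the error. Dhx9 (ENSMUSG00000042699, chromosome 1 from 153331504 to 153363406) had 58.4 and 55.0 CPM in HFD-WT and 52.4 and 52.6 CPM in HFD-KO livers. The groups did not overlap, and the log2 fold change was -0.11 (SE 0.081, edgeR adjusted p = 0.725), with a 95% interval from -0.30 to 0.08. Zfr (ENSMUSG00000022201, chromosome 15 from 12117917 to 12185769) had 35.7 and 34.2 CPM in HFD-WT and 36.5 and 37.8 CPM in HFD-KO livers. Its groups did not overlap either, at a log2 fold change of 0.08 (SE 0.081, edgeR adjusted p = 0.800). Stau1 (ENSMUSG00000039536, chromosome 2 from 166789469 to 166838219) had 77.0 and 78.5 CPM in HFD-WT and 79.0 and 72.1 CPM in HFD-KO livers. The HFD-WT values fell between those of HFD-KO, and the log2 fold change was -0.04 (SE 0.084, edgeR adjusted p = 0.916).

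**Figure D2:**
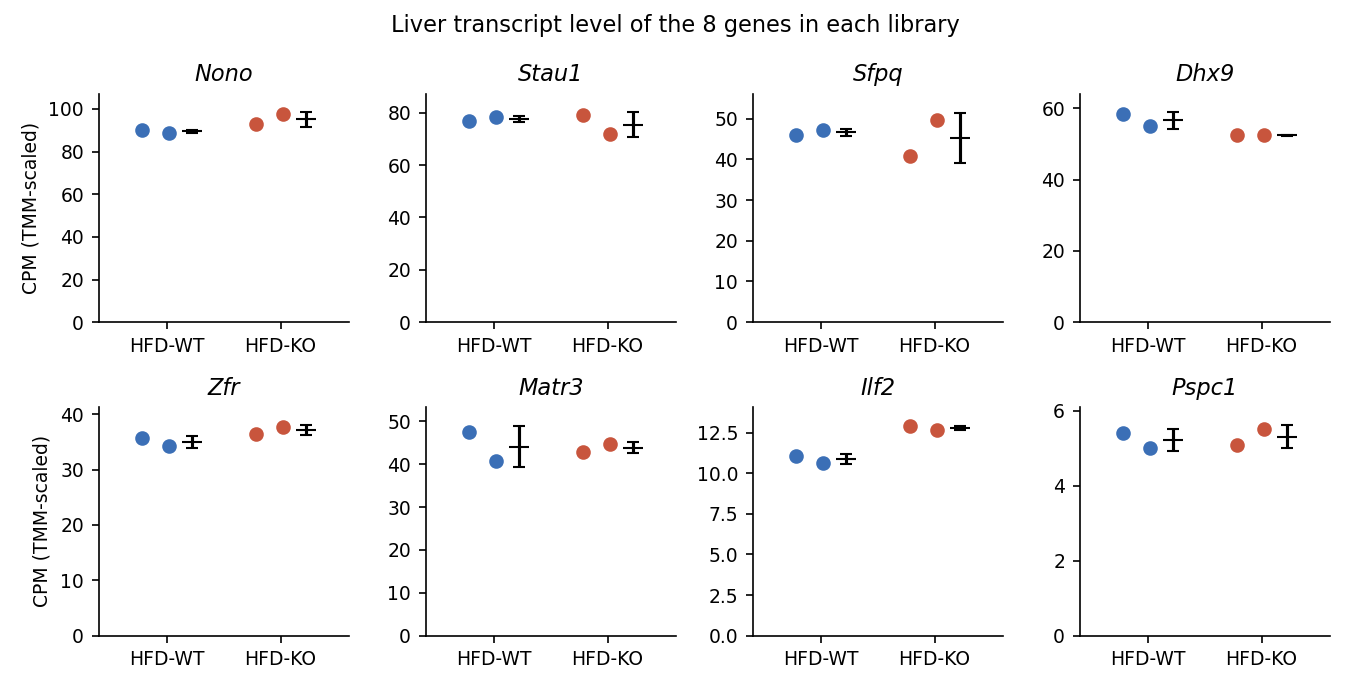
TMM-scaled CPM (vertical axes, each from 0) of the 8 genes in the HFD-WT (blue) and HFD-KO (red) libraries, with 1 point per library and, beside each group, the mean with its SD (n = 2). Relative to its level Ilf2 shows the widest step between groups, 10.7 and 11.1 CPM against 12.7 and 12.9 CPM, while the HFD-KO points of Sfpq and the HFD-WT points of Matr3 lie far apart.

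Across the 8 genes, 0 had an adjusted p under 0.05 by edgeR or by DESeq2, where 0.0771% of all genes tested passed by edgeR. By DESeq2 120 of all genes tested passed, and 5.17% had an unadjusted p under 0.05. At an unadjusted p under 0.05 the count was 0 of 8 by edgeR and 0 by DESeq2, where 8.98% of all genes tested passed by edgeR (4.25% higher and 4.73% lower in HFD-KO), and it was 0 under each of the 9 alternatives. In 4 of the 8 genes (50%) the groups did not overlap in CPM, namely higher in HFD-KO for Nono, Ilf2 and Zfr and lower for Dhx9, which compares with 40.8% of all genes tested (20.5% higher and 20.3% lower). In the authors' TPM the groups did not overlap in 3 of the 8 genes, higher for Ilf2 and lower for Dhx9 and Stau1, against 42.1% of all genes tested (11.4% higher and 30.7% lower), so that Nono, Zfr and Stau1 depended on the scale. Of the 8 log2 fold changes 4 were positive and 4 negative, with a median of 0.01, equal at this rounding to the median of 0.01 over all genes tested. With the library size alone as scaling Pspc1 was negative (-0.023). The median size without regard to sign was 0.07, beside 0.12 for all genes tested, and the median standard errors were 0.09 and 0.12. The 95% intervals ran at the widest from a fold of 0.780 to a fold of 1.32, for Pspc1, and the highest upper bound was 1.39, for Ilf2. An exact permutation test of these libraries reaches at best a two-sided p of 0.333 for any gene. The summed TPM of the 8 genes was 201.5 and 202.7 in HFD-WT and 191.3 and 202.6 in HFD-KO livers.

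**Figure D3:**
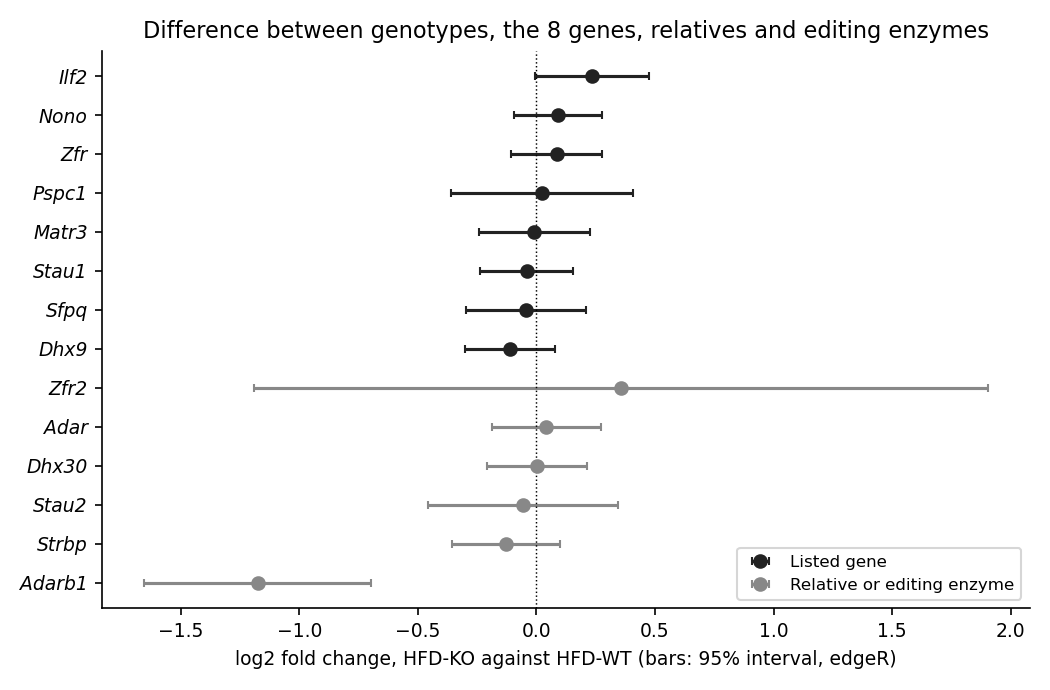
Log2 fold change, HFD-KO relative to HFD-WT, (horizontal axis) with 95% intervals from edgeR for the 8 genes (black) and for relatives and the editing enzymes (grey). The intervals of the 8 genes all include 0, that of Ilf2 only just, whereas the interval of Adarb1 lies wholly below 0 and that of Zfr2, a gene near the detection limit, is the widest.

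Relatives of these proteins were examined next. Strbp, which encodes a protein with double-stranded RNA-binding and DZF domains, had 44.9 and 41.0 CPM in HFD-WT and 36.9 and 41.7 CPM in HFD-KO livers (log2 fold change -0.13, SE 0.097, edgeR adjusted p = 0.738).

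Stau1 and Zfr were far more abundant than their paralogs in every library. Stau1 exceeded Stau2 by a TPM ratio of 28.6 to 31.4, and Stau2 had a log2 fold change of -0.06 (SE 0.17, edgeR adjusted p = 0.949). Zfr2 had between 0.21 and 0.71 CPM, close to the level of 3 counts, so that Zfr exceeded it by a TPM ratio of 38.2 to 124.1, and its log2 fold change of 0.36 had a SE of 0.66. The helicase gene Dhx30 was nearer to its relative, with a TPM ratio of Dhx9 to Dhx30 from 2.05 to 2.46, and its log2 fold change was 0.00 (SE 0.090, edgeR adjusted p = 0.995). Adar, which encodes the other editing enzyme ADAR1, had 32.8 and 30.0 CPM in HFD-WT and 34.4 and 30.2 CPM in HFD-KO livers (log2 fold change 0.04, SE 0.098, edgeR adjusted p = 0.929).

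Other proteins located to paraspeckles were taken from a list of 35 genes, of which 34 had a count and were tested. By edgeR 0 of the 34 had an adjusted p under 0.05, and 1, Smarca4, had an unadjusted p under 0.05, against 8.98% of all genes tested. By DESeq2 the counts were 0 and 0, where 120 and 5.17% of all genes tested passed, respectively. Log2 fold changes were positive for 23 genes and negative for 11, with a median of 0.09 beside 0.01 for all genes tested. Smarca4, the ATPase of the SWI/SNF chromatin remodeller, had 91.8 and 98.8 CPM in HFD-WT and 83.1 and 81.8 CPM in HFD-KO livers. Its HFD-KO values were both below the HFD-WT values, with a log2 fold change of -0.21 (SE 0.081, unadjusted p = 0.0354, edgeR adjusted p = 0.511), and the unadjusted p was 0.0642 with DESeq2, 0.0716 and 0.261 without replicates 1 and 2 of HFD-WT and 0.0543 without replicate 2 of HFD-KO. The count of the list at an unadjusted p under 0.05 was 6 without replicate 2 of HFD-KO, where 11.4% of all genes tested passed, and 3 without replicate 1 of HFD-KO, where 16.4% passed.

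Of the paraspeckle genes named for their role, none passed the test. Rbm14, required for paraspeckle integrity, had 13.7 and 16.5 CPM in HFD-WT and 14.2 and 19.3 CPM in HFD-KO livers (log2 fold change 0.15, SE 0.16, edgeR adjusted p = 0.830). Hnrnpk, which acts on the choice of Neat1 isoform, had 215.0 and 216.0 CPM in HFD-WT and 212.5 and 212.6 CPM in HFD-KO livers. The difference of -0.02 on the log2 scale (SE 0.077, edgeR adjusted p = 0.963) was small although the groups did not overlap. Tardbp, which encodes TDP-43, had a log2 fold change of 0.09 (SE 0.079, edgeR adjusted p = 0.774).

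Genes for other proteins with a double-stranded RNA-binding or DZF domain numbered 20, of which 19 had a count and 17 were tested. By edgeR 0 of the 17 had an adjusted p under 0.05 (0.0771% of all genes tested), while 1, Adarb1, had an unadjusted p under 0.05 (8.98% of all genes tested). By DESeq2 the count at an adjusted p under 0.05 was 1, where 120 of all genes tested passed. That at an unadjusted p under 0.05 was 1 (5.17% of all genes tested), again Adarb1. The median log2 fold change was 0.04, with 10 genes positive and 7 negative, and apart from Adarb1 and the low gene Zfr2 the values lay between -0.23 for Prkra, an activator of the kinase PKR, and 0.20 for Tarbp2, a partner of Dicer. Prkra and Tarbp2, named after their values were seen, had an adjusted p = 0.612 and 0.617 by edgeR.

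Transcripts known to be held in the nucleus were a list of 6, of which 3 had a count, and Malat1, Meg3 and Kcnq1ot1 were not analysed here. Nlrp6, an innate immune sensor gene, had 151.3 and 154.5 CPM in HFD-WT and 216.8 and 175.3 CPM in HFD-KO livers, with the HFD-KO libraries above those of HFD-WT. Its log2 fold change was 0.36 (SE 0.11, unadjusted p = 0.0135, edgeR adjusted p = 0.416). Mlxipl, which encodes the glucose-responsive factor ChREBP, had 225.3 and 211.3 CPM in HFD-WT and 279.5 and 243.5 CPM in HFD-KO livers (log2 fold change 0.26, SE 0.097, unadjusted p = 0.0296, edgeR adjusted p = 0.493). With a library left out, the log2 fold change ran from 0.20 to 0.50 for Nlrp6 and from 0.16 to 0.36 for Mlxipl. In both genes the lowest value came without replicate 1 and the highest without replicate 2 of HFD-KO, so the size depended on a single library. With the library size alone as scaling, 1 of the 3 had an unadjusted p under 0.05, where 9.56% of all genes tested passed. Slc7a2, an arginine transporter gene with a nuclear-retained form, had 466.7 and 537.5 CPM in HFD-WT and 484.5 and 533.3 CPM in HFD-KO livers, with overlapping groups and a log2 fold change of 0.02 (SE 0.11, edgeR adjusted p = 0.974). Accordingly 0 of 3 passed an adjusted p under 0.05, 2 of 3 had an unadjusted p under 0.05 by edgeR (8.98% of all genes tested) and 2 by DESeq2 (5.17%). Counts per gene do not separate nuclear from cytoplasmic RNA.

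**Figure D4:**
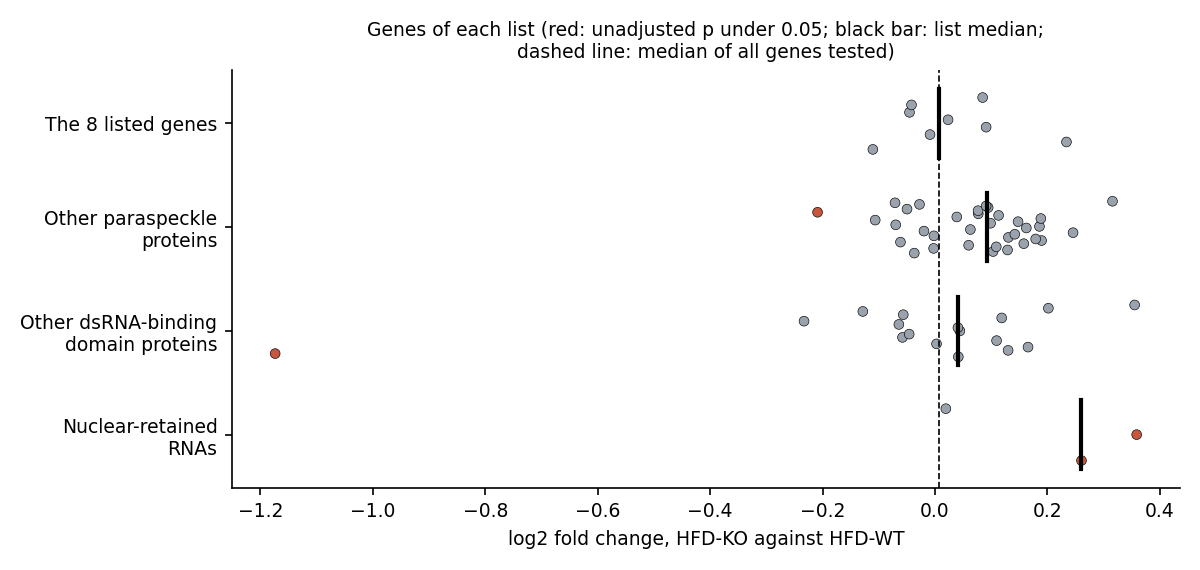
Log2 fold change, HFD-KO relative to HFD-WT, (horizontal axis) for the tested genes of 4 lists, 1 point per gene, red at an unadjusted p under 0.05 by edgeR, with a black bar at the list median and a dashed line at the median of all genes tested. The 8 listed genes centre on 0.01 with no red point, and Adarb1 stands apart at -1.17.

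Markers of other liver cell types were summed beside these values. In bulk tissue fewer cells of a type and less RNA per cell cannot be told apart. The 8 Kupffer cell and macrophage markers summed to 240.6 and 309.2 CPM in HFD-WT and 193.7 and 190.6 CPM in HFD-KO livers. Of these, 5 of 8 were lower at an unadjusted p under 0.05 by edgeR, against 4.73% of all genes tested. Marco leaned to higher values (log2 fold change 0.46, SE 0.31), and the groups of Marco and Cd68 overlapped. The 6 stellate cell markers summed to 357.2 and 404.3 CPM in HFD-WT and 309.9 and 254.0 CPM in HFD-KO livers. Here 4 of 6 were lower at an unadjusted p under 0.05 by edgeR, against the same 4.73%, while Rgs5 had a log2 fold change of 0.07 (SE 0.21) with overlap. The 5 red blood cell markers summed to 757.1 and 600.5 CPM in HFD-WT and 810.7 and 1146 CPM in HFD-KO livers, with 3 of 5 higher at that p, against 4.25% of all genes tested. The 5 cholangiocyte markers summed to 71.5 and 90.5 CPM in HFD-WT and 59.4 and 50.04 CPM in HFD-KO livers, without overlap. Only 1 of 5, Spp1, was lower at that p. Spp1 alone had 64.3 and 83.9 CPM in HFD-WT and 53.8 and 42.8 CPM in HFD-KO livers, most of these sums. The groups of Krt19, Krt7, Epcam and Sox9 overlapped. The 6 endothelial markers summed to 237.9 and 273.4 CPM in HFD-WT and 229.6 and 244.9 CPM in HFD-KO livers, with overlap and with 1 of 6, Lyve1, lower at that p. Of the 18 circadian clock genes with a count, 6 had an unadjusted p under 0.05 by edgeR, against 8.98% of all genes tested, and the part of these markers and of the clock genes in the values of the 8 genes was not tested.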

How the data were processed

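Liver polyA RNA of 2 HFD-WT and 2 HFD-KO libraries was examined. The authors made directional libraries (MGI Tech), sequenced read pairs, aligned them with that company's tool and quantified genes in Partek Genomics Suite against GENCODE. The methods name mm10, whereas the table's positions are those of GRCm39. Tool versions and the handling of strand and multiple alignments are not given in the sources used here. The deposited counts are whole reads per gene without normalization, and all tests used them. The authors' TPM values (counts per exon length, to a fixed sum) served to compare genes. The authors' RPKM values gave exon lengths only, and the deposited CPM values, a score on an adjusted library size, were not used.

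The software was R 4.3.3 and edgeR 4.0.16. The filterByExpr filter left 12967 genes, which were TMM-scaled and compared, unpaired and two-sided, by the quasi-likelihood test, adjusting p over all genes tested (Benjamini-Hochberg). Alternatives were DESeq2 1.42.0, its size factors, the library size alone, no filter, the replicate number as a block and leaving out each library. The fit was tested on simulated data. The genes and lists were chosen with earlier results of these data known. The genes named are the 8 measured genes, a set fixed by role (relatives, editing enzymes, paraspeckle proteins) and list genes with an unadjusted p under 0.05, with exceptions stated. Results of some genes chosen by this rule are not reported here. Promoters are RefSeq sequences on GRCm38.p6, and no position was converted between builds.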

Additional observations from a re-analysis of the deposited data

How the results depend on the processing

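For the 8 genes the count at an adjusted and at an unadjusted p under 0.05 was 0 in all 9 alternatives. Of their 72 log2 fold changes under the alternatives 65 kept their sign and 7 changed it, all in Pspc1, Matr3, Sfpq and Stau1. With the library size alone, log2 fold changes that turned were -0.023 for Pspc1, -0.044 for Dhx30, -0.0036 for Adar and -0.028 for Slc7a2, and with no filter -0.0019 for Dhx30. With a library left out, those that turned ranged from -0.19 to 0.090 for Sfpq, from -0.037 to 0.083 for Pspc1, from -0.11 to 0.10 for Matr3, from -0.11 to 0.022 for Stau1, from -0.36 to 1.27 for Zfr2, from -0.086 to 0.091 for Dhx30, from -0.055 to 0.13 for Adar, from -0.090 to 0.36 for Rbm14 and from -0.085 to 0.13 for Slc7a2. The cause was not tested. Chosen after seeing the data, the authors' TPM in place of TMM-scaled CPM left 3 rather than 4 of the 8 genes with groups that did not overlap.

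Genes with an adjusted p under 0.05 numbered 10 by edgeR, 6 with the library size alone, 120 with DESeq2, 162 with no filter and 20 with the replicate block, and from 0 (without replicate 2 of HFD-WT) to 705 (without replicate 1 of HFD-KO) with a library left out. Of other paraspeckle proteins 1 had an unadjusted p under 0.05 by edgeR, where 8.98% of all genes tested passed. With DESeq2 the count was 0 (5.17% of all genes tested) and with the replicate block 0 (7.54%). Of other double-stranded RNA-binding domain proteins, 1 (Adarb1) rather than 0 had an adjusted p under 0.05 with DESeq2, no filter and the replicate block. With the library size alone, 2 rather than 1 had an unadjusted p under 0.05, where 9.56% of all genes tested passed. Of nuclear-retained RNAs, 1 rather than 2 had an unadjusted p under 0.05 with the library size alone (9.56% of all genes tested). Across genes, the deviations of same-numbered libraries from their group means had Pearson's r = -0.087. With 2 libraries per group both same-numbered pairs give this same value. It therefore cannot show whether same-numbered libraries share a batch or litter. The replicate block was not used as the main fit. Where leaving out a library left a group with 1, that library was assumed to vary like the other group.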
